A study of Mus musculus with 32 samples.

Results

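The genes described here act in carnosine and polyamine metabolism in skeletal muscle. Gadl1 and Carns1 serve carnosine synthesis, and Amd1, Amd2, Odc1, Sms, Srm, Smox, Sat1 and Azin1 serve polyamine synthesis, breakdown or control. They were listed by symbol, matched to 10 of the 55487 genes in the count table, and followed through all 8 groups of muscle and genotype. The list was drawn up with results of these libraries known, among them the low Gadl1 level in double-knockout gastrocnemius and the low level of several polyamine genes in soleus. For these 10 genes, differences that use the double-knockout gastrocnemius libraries, and differences between the muscles of control mice, are therefore given as descriptions without p-values, and so is whether a gene passed the all-gene threshold there.

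RNA was sequenced from the medial gastrocnemius, a fast-twitch calf muscle, and the soleus, a slow-twitch one, of 16 mice with 4 mice per genotype. The genotypes were control, Acvr1b KO, Tgfbr1 KO and a double KO that lacks both genes. Acvr1b encodes the activin receptor ALK4 and Tgfbr1 the TGF-beta receptor ALK5, which are type I receptors for activins, myostatin and TGF-beta. The deletions were restricted to myofibres. Tamoxifen was given when the mice were 6 weeks old, and left-leg muscles were taken 3 months later. The Cre driver and the exact genotype and treatment of the control mice are not given in the sources used here. The 4 double KO mice carry animal numbers from a range of their own, so litter or cohort and genotype cannot be told apart in any comparison with that group. Whole muscle also contains vessels, fat, nerve and immune cells, and in such bulk samples fewer cells of a type and less RNA per cell cannot be told apart.

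Carnosine is a dipeptide of beta-alanine and histidine that buffers protons in fast muscle fibres. GADL1 is a decarboxylase that can supply beta-alanine from aspartate, and CARNS1 is carnosine synthase, which joins beta-alanine to histidine. Polyamines are small cations needed for translation and growth. ODC1 makes putrescine from ornithine. S-adenosylmethionine decarboxylase, encoded in mice by Amd1 and its copy Amd2, supplies the aminopropyl groups that spermidine synthase (Srm) and spermine synthase (Sms) add. SMOX oxidises spermine back to spermidine, SAT1 acetylates polyamines for export or breakdown, and AZIN1 protects ODC1 by binding the antizymes that send it to degradation.

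In GRCm38 the carnosine genes were Gadl1 (ENSMUSG00000056880) at chr9:115909455-116076176 on the plus strand and Carns1 (ENSMUSG00000075289) at chr19:4164324-4175479 on the minus strand. The genes that start polyamine synthesis and supply its aminopropyl groups were Odc1 (ENSMUSG00000011179) at chr12:17544794-17551505 on the plus strand, Azin1 (ENSMUSG00000037458) at chr15:38487427-38519266 on the minus strand, Amd1 (ENSMUSG00000075232) at chr10:40287458-40302188 on the minus strand and Amd2 (ENSMUSG00000063953) at chr10:35708675-35711892 on the minus strand. The synthases were Srm (ENSMUSG00000006442) at chr4:148591503-148594993 on the plus strand and Sms (ENSMUSG00000071708) at chrX:157443855-157492287 on the minus strand. The catabolic enzymes were Smox (ENSMUSG00000027333) at chr2:131491496-131525922 on the plus strand and Sat1 (ENSMUSG00000025283) at chrX:155213132-155216449 on the minus strand. All 10 are annotated as protein-coding, and each count covers all exons of the gene.

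The Amd1 and Amd2 sequences are shown first, since they decide how far the counts of these genes can be separated. The GENCODE M21 transcript used for Amd1, spliced from 8 exons, and that for Amd2, with 1 exon, have coding sequences of 1002 bases each that differ at 1 base, G796C (Amd1 base, position from 1 at the first coding base, Amd2 base). Coding bases 776 to 816 of each are given with that base in capitals.
Amd1: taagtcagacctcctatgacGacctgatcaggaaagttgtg
Amd2: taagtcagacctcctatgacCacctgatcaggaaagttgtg
Of the 3169 windows of 50 bases in the Amd2 transcript, 85.7% were found unchanged in Amd1. The windows around the annotated starts, from 250 bases before to 30 bases after (RefSeq, GRCm38.p6), show where the likeness begins. Amd1 lies on the minus strand at chr10:40302159-40302438 and Amd2 on the minus strand at chr10:35711862-35712141, and capitals mark the longest run they share, 28 bases.
Amd1: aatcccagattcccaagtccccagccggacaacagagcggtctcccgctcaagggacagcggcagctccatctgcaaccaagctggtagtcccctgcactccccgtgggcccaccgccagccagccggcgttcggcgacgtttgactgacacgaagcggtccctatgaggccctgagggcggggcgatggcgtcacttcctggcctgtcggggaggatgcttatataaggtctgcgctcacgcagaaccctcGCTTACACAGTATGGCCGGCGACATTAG
Amd2: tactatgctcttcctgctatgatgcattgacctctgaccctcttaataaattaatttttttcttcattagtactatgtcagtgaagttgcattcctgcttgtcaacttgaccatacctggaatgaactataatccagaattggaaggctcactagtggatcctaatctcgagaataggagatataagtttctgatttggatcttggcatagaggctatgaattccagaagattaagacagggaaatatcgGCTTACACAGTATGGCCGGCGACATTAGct
The shared run begins at the Amd2 start and reaches the last base of the Amd1 window, so the end of the window limits its length. Over the 250 bases before the shared run in each window, set side by side without gaps, 25.2% of positions were identical. The Amd1 window held the letters TATATAA about 30 bases before its start and had a GC content of 63.2%, whereas the Amd2 window held none of the motifs searched and had a GC content of 39.3%. TATATAA was chosen after the window had been read. It occurred on either strand in 3.17%, and the usual TATA box TATAAA in 13.1%, of all 32851 windows of this length.

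The start windows of Gadl1 and Smox are given because these genes had, respectively, the largest fitted difference of the 10 between double KO and control gastrocnemius and between control soleus and gastrocnemius. The Gadl1 window is on the plus strand at chr9:115909205-115909484 and carries no capitals.
Gadl1: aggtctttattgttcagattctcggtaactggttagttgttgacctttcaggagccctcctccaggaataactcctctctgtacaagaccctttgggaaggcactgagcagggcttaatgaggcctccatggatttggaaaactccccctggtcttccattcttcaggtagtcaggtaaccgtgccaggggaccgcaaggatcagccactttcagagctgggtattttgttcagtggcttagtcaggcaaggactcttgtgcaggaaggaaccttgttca
The Smox window is on the plus strand at chr2:131491612-131491891, with GGGCGG, the GC-box core, in capitals on either strand.
Smox: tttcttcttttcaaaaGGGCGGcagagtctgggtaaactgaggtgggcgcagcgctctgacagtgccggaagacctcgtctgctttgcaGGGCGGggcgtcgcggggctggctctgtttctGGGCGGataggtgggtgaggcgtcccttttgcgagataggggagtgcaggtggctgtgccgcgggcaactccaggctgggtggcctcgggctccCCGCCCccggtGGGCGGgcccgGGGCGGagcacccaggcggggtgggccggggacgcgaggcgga
Both strands were searched for the E-box CANNTG, for CACGTG, which is one form of it, for the short SMAD-binding core CAGAC, for the GC-box core GGGCGG and for the TATA-box letters given above. The Gadl1 window held no match to any of them and had a GC content of 50%. The Smox window held 6 matches to GGGCGG, 2 to CAGAC and 1 to CANNTG, with a GC content of 69.6%. Over all 32851 windows, GGGCGG occurred at least once in 34.7%, CAGAC in 46.8%, CANNTG in 70.1% and CACGTG in 6.79%, and the median GC content was 52.5%. How often a window held several matches was not counted, so these shares do not show whether 6 is unusual. The Odc1 window held 4 GGGCGG. The Sat1 window held 2 GGGCGG, 2 CANNTG and 1 CAGAC, and the Amd1 window 1 of each of these. The Sms window at chrX:157491339-157491618 held 4 GGGCGG. The Sms window at chrX:157492258-157492537 held 3 CANNTG, 1 of them CACGTG. Windows were found for 7 of the 10 genes, and those of Carns1, Srm and Azin1 were not analysed here. A match describes letters in these windows and is not evidence of binding.

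The counts summed to between 16535498 and 54456977 per library. Acvr1b, counted over its whole gene, was at 94.2 to 117 CPM (counts scaled to library size) in control gastrocnemius and at 23.7 to 27.2 CPM in Acvr1b KO and 14.03 to 23.4 CPM in double KO gastrocnemius. In soleus it was at 29.1 to 46.0 CPM in controls, 11.1 to 13.9 CPM in Acvr1b KO and 6.93 to 10.1 CPM in double KO. Tgfbr1 was no lower in the Tgfbr1 KO libraries, at 24.6 to 31.8 CPM against 22.9 to 37.5 CPM in control gastrocnemius, and higher in double KO gastrocnemius, at 38.4 to 56.3 CPM. Gene-level counts do not show whether the deleted part of Tgfbr1 was transcribed, so they do not check that label. The skeletal muscle fibre markers Acta1, Ckm, Des, Ttn, Mb and Mylpf together reached 57003 to 69847 CPM in gastrocnemius and 30338 to 51750 CPM in soleus.

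Some libraries stood apart from the rest of their group. The soleus of double KO mouse 1 did so in 14.7% of all genes by Dixon's ratio and its gastrocnemius in 5.61%. Gastrocnemius control 1 did so in 6.26% of genes and had 25.99% mitochondrial counts, against 10.3% to 19.3% in the other gastrocnemius libraries. Soleus Acvr1b KO 1 did so in 6.57%, and gastrocnemius Tgfbr1 KO 1 had the lowest total count. In the soleus of double KO mouse 1 the 8 slow-fibre genes summed to 15789 CPM, against 27564 to 28694 CPM in the other double KO soleus libraries, and the macrophage markers to 113 CPM against 48.6 to 73.7 CPM. These 5 libraries were left out together in an alternative fit. Gastrocnemius Tgfbr1 KO 1 was among them for its depth, standing apart in 2.01% of genes, while soleus Tgfbr1 KO 1 (3.5%) and soleus control 3 (3.29%) were kept. Results that rest on double KO mouse 1 are given with and without it.

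Per kilobase of exon, the 10 genes spanned a wide range in control gastrocnemius. Amd1 had 308 ± 21.4 CPM per kilobase (SD, n = 4), Amd2 175 ± 12.3, Smox 142 ± 27.7, Odc1 45.7 ± 8.02 and Sms 19.99 ± 3.25 CPM per kilobase. The lower end was formed by Sat1 at 8.46 ± 1.04, Azin1 at 5.45 ± 2.06, Gadl1 at 4.92 ± 0.532, Carns1 at 2.61 ± 0.301 and Srm at 2.27 ± 0.493 CPM per kilobase. Among neighbours in this order, the control libraries overlapped for Amd2 and Smox, Sat1 and Azin1, Azin1 and Gadl1, and Carns1 and Srm. In control soleus the top of this order changed. Odc1, at 12 ± 1.67 CPM per kilobase, Amd1, at 11.3 ± 1.76, and Sat1, at 9.96 ± 0.646, overlapped, and Carns1 was lowest at 0.723 ± 0.105 CPM per kilobase.

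**Figure D1:**
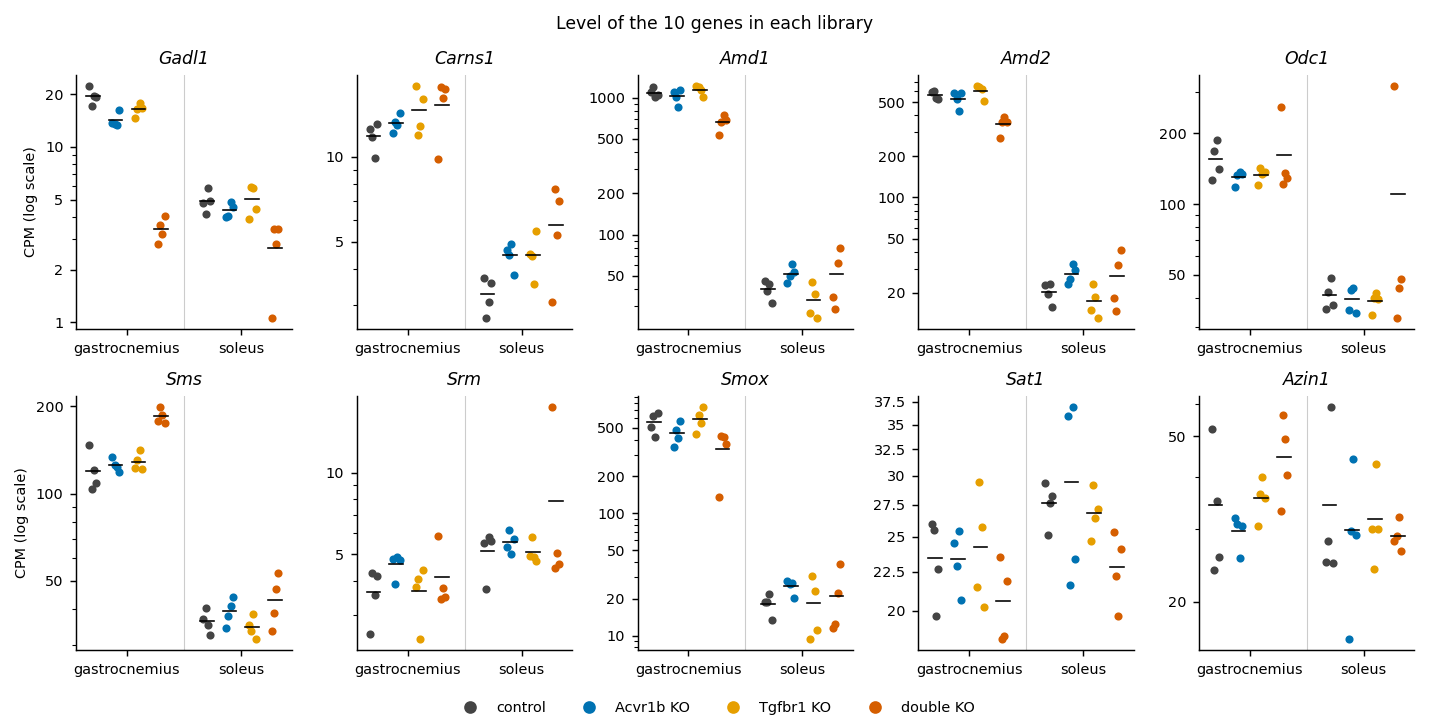
Level of each gene in CPM on a log axis, with 1 point per library, grouped by muscle and coloured by genotype; horizontal bars are means of 4. Gadl1 in double KO gastrocnemius lies between 2.79 and 4.05 CPM, below every other gastrocnemius library, and Odc1 and Srm in soleus each have 1 double KO library far above the rest.

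Gadl1, the beta-alanine-producing decarboxylase, had the largest difference of the 10 between double KO and control gastrocnemius. Its levels in control gastrocnemius were 22.2, 17.1, 19.6 and 19.2 CPM, and in double KO gastrocnemius 2.79, 3.602, 3.18 and 4.05 CPM. No double KO library came near the lowest control, and the fitted level was 5.68-fold lower (log2 difference -2.50 ± 0.12, SE). The single knockouts lay between. Acvr1b KO gastrocnemius had 13.7, 13.4, 13.4 and 16.2 CPM and Tgfbr1 KO gastrocnemius 14.6, 16.5, 17.7 and 16.7 CPM. The Acvr1b KO libraries were all below the controls, by 0.46 ± 0.11 on the log2 scale, a difference that did not pass edgeR's quasi-likelihood test over all genes (adjusted p = 0.336) but did with DESeq2 (adjusted p = 0.0386). Groups failed to overlap in this way in 2.88% of all genes. Tgfbr1 KO differed from control by -0.25 ± 0.11 (edgeR, adjusted p = 0.777). The low double KO level of Gadl1 was known against these same control libraries. These single-knockout p-values are therefore not independent tests of Gadl1. The double KO level was lower than the sum of the 2 single-knockout differences gives, by 1.79 ± 0.16 on the log2 scale, and by 1.72 ± 0.16 without double KO mouse 1.

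In soleus, Gadl1 started lower and differed less. Control soleus had 4.81, 4.16, 5.87 and 4.94 CPM, and double KO soleus 1.06, 3.40, 2.79 and 3.39 CPM. Every double KO library was below every control. The groups did not overlap, in either direction, in 7.83% of all genes. The lowest was double KO mouse 1. The log2 difference was -0.90 ± 0.26 (edgeR, adjusted p = 0.140), and -0.64 ± 0.17 without mouse 1 (adjusted p = 0.0762), while DESeq2 placed it past the threshold with all libraries (adjusted p = 0.0385). Acvr1b KO soleus, at 3.98 to 4.85 CPM, and Tgfbr1 KO soleus, at 3.91 to 5.94 CPM, overlapped the controls. The double KO difference in soleus minus that in gastrocnemius was 1.61 ± 0.29 on the log2 scale. It passed edgeR's threshold over all genes when all 32 libraries were fitted, as 0.732% of genes did (0.299% higher), and without double KO mouse 1 (1.80 ± 0.20), but not when only the 4 groups compared were fitted.

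Carns1, carnosine synthase, did not fall with Gadl1. Control gastrocnemius had 12.5, 11.7, 9.915 and 13.01 CPM and double KO gastrocnemius 9.81, 17.6, 16.1 and 17.3 CPM. Of the double KO libraries, 3 lay above every control and mouse 1 lay below them all. The log2 difference was 0.37 ± 0.16 with all libraries and 0.53 ± 0.13 without mouse 1, and the threshold was passed only without it. In soleus, mouse 1 lay within the control range and the other double KO libraries lay above it. Control soleus had 3.74, 2.70, 3.07 and 3.57 CPM and double KO soleus 3.08, 7.66, 5.30 and 6.97 CPM. The difference was 0.81 ± 0.22 (edgeR, adjusted p = 0.114). It was 1.01 ± 0.16 (edgeR, adjusted p = 0.00660) once mouse 1, the double KO library within the control range, was left out. Carns1 was listed with results of these libraries known, so that value is a description and not an independent test. With all libraries DESeq2 gave an adjusted p of 0.0288. The single-knockout soleus libraries had 3.84 to 4.94 CPM for Acvr1b KO and 3.55 to 5.49 CPM for Tgfbr1 KO, and both overlapped the double KO range. Acvr1b KO soleus did not overlap control soleus, as was so for 1.70% of all genes, but neither single knockout passed the edgeR test (log2 differences 0.46 ± 0.22 for each, both adjusted p of 1.00).

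**Figure D2:**
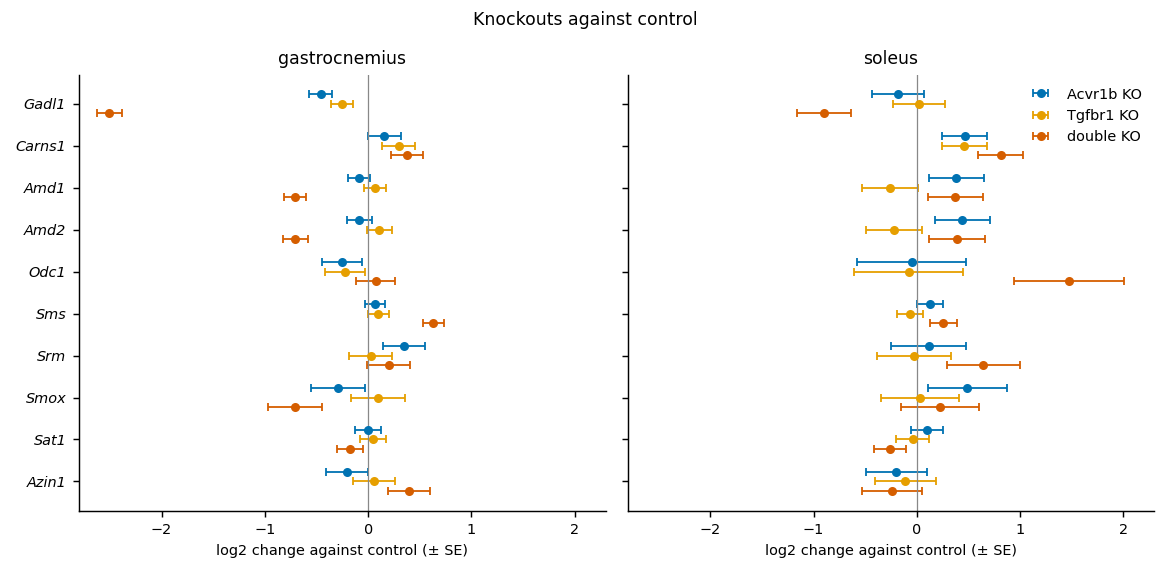
Fitted log2 difference from control, with standard errors, for each gene and knockout in gastrocnemius (left) and soleus (right). In gastrocnemius Gadl1, Amd1 and Amd2 lie left of 0 and Sms right of it in the double KO, at -2.50, -0.71, -0.70 and 0.63, and the wide bar of Odc1 in soleus comes with a single high library.

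Over the 10 genes, 4 passed the threshold of adjusted p under 0.05 in edgeR's test between double KO and control gastrocnemius, against 20.9% of all 17536 genes tested. Gadl1, Amd1 and Amd2 were lower, where 9.59% of all genes were, and Sms was higher, where 11.4% were. In the same 4 the groups did not overlap, as in 21.3% of all genes. These 4 were also past the threshold against Acvr1b KO, where 16.3% of all genes passed (9.20% higher, 7.06% lower), and against Tgfbr1 KO, where 12.9% passed (7.44% higher, 5.42% lower). Groups did not overlap for 5 of the 10 against Acvr1b KO, Azin1 being the fifth (26.1% of all genes), and for 5 against Tgfbr1 KO, Smox being the fifth (16.9%). These contrasts were among the results known when the list was made. The median log2 difference of the 10 genes from control was -0.05, against 0.00041 for all genes. Between control and either single knockout none of the 10 passed in either muscle. The all-gene shares were 0.0285% for Acvr1b KO and 0.171% for Tgfbr1 KO in gastrocnemius, and 0.0220% and 0.0496% in soleus. At an unadjusted p under 0.05 there was 1 of the 10 for each single knockout in gastrocnemius, Gadl1 in both, and 0 in soleus. Over all genes there were 775 for Acvr1b KO and 1052 for Tgfbr1 KO in gastrocnemius, and 353 and 410 in soleus. DESeq2 placed 1 of the 10, Gadl1, past the threshold in Acvr1b KO gastrocnemius, where 25 of all genes passed, and 0 elsewhere. Nothing is read from these Gadl1 results, since its low double KO level was known against the same control gastrocnemius libraries.

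Amd1, which encodes S-adenosylmethionine decarboxylase, had the highest level per kilobase of the 10 in gastrocnemius. Control libraries had 1098, 1193, 1018 and 1053 CPM and double KO libraries 538, 663, 753 and 690 CPM. The groups did not overlap, and the fitted level was 1.64-fold lower (log2 difference -0.71 ± 0.11, or -0.63 ± 0.10 without mouse 1). Acvr1b KO gastrocnemius, at 859 to 1135 CPM, and Tgfbr1 KO gastrocnemius, at 1015 to 1215 CPM, overlapped control. Amd2 had 592, 601, 536 and 523 CPM in control and 271, 356, 390 and 356 CPM in double KO gastrocnemius, a log2 difference of -0.70 ± 0.12. Amd1 and Amd2 are not 2 separate observations. In every one of the 32 libraries Amd2 stood at 0.494 to 0.565 of the Amd1 count, and the 5 Amd pseudogenes in the table differed alike, by -0.58 to -0.72. The double KO level departed from the sum of the single-knockout differences by -0.69 ± 0.15 for Amd1 and -0.73 ± 0.17 for Amd2. Both were past the threshold, but neither was once control 3, Acvr1b KO 1, Acvr1b KO 4 or Tgfbr1 KO 2 was left out (Amd1 -0.64 to -0.67). Amd2 lost its call in 10 of its 22 alternatives.

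**Figure D3:**
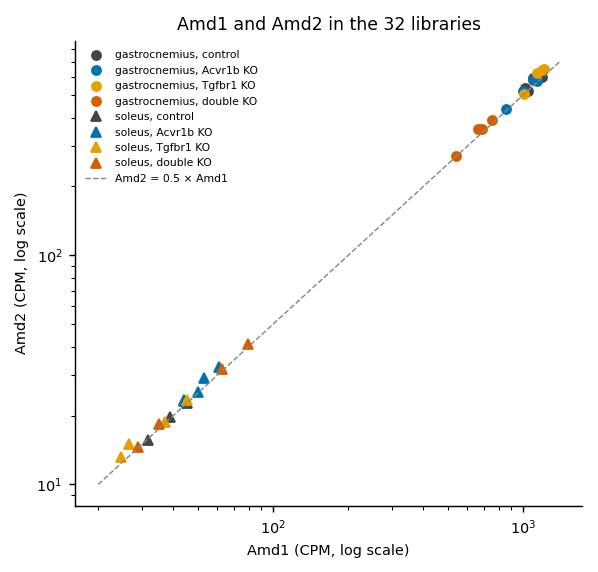
Amd1 against Amd2 in CPM on log axes, with 1 point per library (circles gastrocnemius, triangles soleus) and a dashed line at an Amd2 level of 0.5 times Amd1. All 32 libraries lie along that line, from soleus at 24.8 CPM to gastrocnemius at 1215 CPM of Amd1.

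In soleus, Amd1 was at 45.5, 38.9, 44.0 and 31.7 CPM in controls and at 35.1, 28.8, 62.4 and 79.7 CPM in double KO. The double KO libraries reached from below to above the controls, with a log2 difference of 0.37 ± 0.27 (edgeR, adjusted p = 0.622). Acvr1b KO soleus had 44.2 to 60.7 CPM and Tgfbr1 KO soleus 24.8 to 45.4 CPM. The double KO difference in soleus minus that in gastrocnemius was 1.09 ± 0.30 for Amd1, which did not pass the threshold with all libraries. Of 25 alternatives it passed in 4: without double KO mouse 1 (1.14 ± 0.30), without soleus double KO 1 alone (1.23) or soleus double KO 2 (1.28), and with DESeq2. It did not pass in 21, among them without gastrocnemius double KO 1 (1.00) and without the 5 libraries that stood apart (1.14).

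Sms, spermine synthase, was the only one of the 10 higher in double KO than in control gastrocnemius past the threshold. Control libraries had 147, 104, 121 and 109 CPM and double KO libraries 179, 199, 187 and 176 CPM. All double KO libraries were above all controls (log2 difference 0.63 ± 0.10, and 0.64 ± 0.11 without mouse 1). Acvr1b KO, at 119 to 134 CPM, and Tgfbr1 KO, at 122 to 141 CPM, lay within the control range. In soleus the double KO libraries had 33.5, 38.7, 46.9 and 53.4 CPM against 36.8, 40.4, 35.3 and 32.6 CPM in controls, which overlapped (log2 difference 0.26 ± 0.13, edgeR adjusted p = 0.441). Sms shares 28.7% of its 50-base windows with other transcripts, mainly the pseudogene Sms-ps, which differed by 0.57 in gastrocnemius.

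Srm, spermidine synthase, was the least abundant per kilobase in control gastrocnemius, at 2.54, 4.26, 3.54 and 4.16 CPM. Double KO gastrocnemius had 5.84, 3.44, 3.77 and 3.48 CPM, with mouse 1 above all controls and the others within their range. In soleus the same mouse had 17.5 CPM, against 4.44, 5.05 and 4.61 CPM in the other double KO mice and 3.73 to 5.78 CPM in controls. The log2 difference in soleus was 0.64 ± 0.36 (edgeR, adjusted p = 0.494) with mouse 1 and -0.14 ± 0.14 without it (adjusted p = 0.755).

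Odc1, the enzyme that starts polyamine synthesis, also stood apart in double KO mouse 1 in both muscles. Double KO gastrocnemius had 259, 122, 136 and 129 CPM against 127, 168, 188 and 141 CPM in controls. Double KO soleus had 317 (mouse 1), 32.9, 44.1 and 47.9 CPM against 35.7, 42.3, 48.3 and 37.2 CPM in controls. Only mouse 1 lay outside the controls upwards. In soleus the log2 difference was 1.47 ± 0.54 (edgeR, adjusted p = 0.268) and 0.02 ± 0.14 without mouse 1 (adjusted p = 0.971). In gastrocnemius it was 0.07 ± 0.19, and -0.27 ± 0.11 without mouse 1. Without all 5 libraries that stood apart it was -0.35 ± 0.09, past the threshold. Acvr1b KO gastrocnemius, at 118 to 137 CPM, and Tgfbr1 KO gastrocnemius, at 120 to 142 CPM, overlapped control. Odc1 shares 42.2% of its 50-base windows with other transcripts, pseudogenes among them. Tgfbr1 was also high in the soleus of mouse 1, at 51.2 CPM against 14.7 to 17.04 CPM in the other double KO soleus libraries.

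Azin1, the antizyme inhibitor, had the widest spread among controls relative to its mean. Control gastrocnemius had 52.0, 23.8, 35.05 and 25.7 CPM and double KO gastrocnemius 33.1, 56.2, 49.2 and 40.4 CPM. The ranges overlapped, with control 1, the library with the high mitochondrial share, and control 3 above the lowest double KO library. The log2 difference was 0.40 ± 0.21, and it was 0.68 and past the threshold without control 1. In soleus, controls had 24.98, 27.9, 58.8 and 24.7 CPM and double KO 27.95, 28.7, 32.1 and 26.4 CPM, and control 3 alone was high (log2 difference -0.24 ± 0.29, edgeR adjusted p = 0.803).

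**Figure D4:**
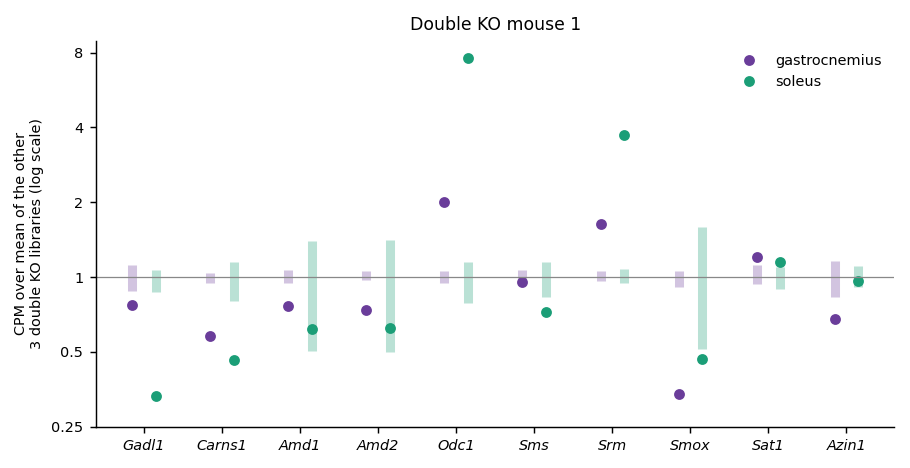
Level in double KO mouse 1 divided by the mean of the other 3 double KO libraries of that muscle, on a log axis; pale bars span those 3 libraries. Odc1 stands at 2.01 in gastrocnemius and 7.63 in soleus, Srm at 1.64 and 3.71, Carns1 at 0.578 and 0.464, and Smox at 0.338 and 0.469.

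Smox, spermine oxidase, had 510, 620, 424 and 663 CPM in control and 136, 425, 417 and 369 CPM in double KO gastrocnemius. The double KO libraries lay below the lowest control, apart from mouse 2 just above it. The log2 difference of -0.71 ± 0.26 did not pass edgeR's threshold and passed it with DESeq2. It was -0.45 ± 0.18 without mouse 1, the lowest library. A fit with the replicate number as a block gave -0.78, past the threshold. Acvr1b KO gastrocnemius had 345 to 569 CPM and Tgfbr1 KO gastrocnemius 448 to 736 CPM. In soleus, double KO libraries at 11.5, 12.5, 22.1 and 38.7 CPM surrounded the controls at 18.8, 18.7, 21.7 and 13.5 CPM (log2 difference 0.23 ± 0.38, edgeR adjusted p = 0.862). Sat1, the acetyltransferase, had 19.7 to 25.96 CPM in control and 18.4 to 23.5 CPM in double KO gastrocnemius, and 25.2 to 29.4 CPM and 19.7 to 25.3 CPM in soleus. Its log2 differences were -0.18 ± 0.13 in gastrocnemius and -0.26 ± 0.16 in soleus (edgeR, adjusted p = 0.528 in soleus).

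In soleus none of the 10 genes passed the threshold between double KO and control, where 0.722% of all 18143 genes did, 131 in number. At an unadjusted p under 0.05 there were 3 of the 10, and 2219 of all genes. DESeq2 placed 2 of the 10 past the threshold (Gadl1 and Carns1) and 410 of all genes, and leaving out soleus double KO 1 placed 1 of the 10 (Carns1). The lowest adjusted p over the 10 was 0.321 against Tgfbr1 KO and 0.337 against Acvr1b KO with edgeR, where 0.0496% and 0.127% of all genes passed. At an unadjusted p under 0.05 there were 5 and 3 of the 10, and 1656 and 2030 of all 18143 genes. DESeq2 placed 0 of the 10 past the threshold. Gadl1 did not overlap with either single knockout, as was so for 4.59% (Tgfbr1 KO) and 5.01% (Acvr1b KO) of all genes. The departure from the sum of the single-knockout differences passed edgeR's threshold in soleus for 0 of the 10 and for 0 of all genes. At an unadjusted p under 0.05 there were 1 and 614, and DESeq2 placed 0 of the 10. In gastrocnemius 3 of the 10 passed (Gadl1, Amd1 and Amd2, all lower), where 2.14% of all genes did, 0.667% lower. Nothing is read from that count, since the double KO gastrocnemius levels were known when the list was made and Amd1 and Amd2 are not separate observations.

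Among the 10 genes, Smox, Amd1 and Amd2 had the largest differences between the muscles of control mice. Smox was at 18.8, 18.7, 21.7 and 13.5 CPM in soleus, 30.5-fold below gastrocnemius (log2 difference -4.93 ± 0.40). Amd1 was 27.3-fold lower (-4.77 ± 0.25), and Amd2 differed by -4.79 ± 0.25. Gadl1 (-1.98 ± 0.20), Odc1 (-1.93 ± 0.42), Carns1 (-1.85 ± 0.21) and Sms (-1.73 ± 0.12) were lower to a lesser degree. Srm (0.51 ± 0.30), Sat1 (0.23 ± 0.14) and Azin1 (0.00 ± 0.26) overlapped between the muscles. The 7 lower genes passed edgeR's threshold, as 40.4% of all 18726 genes did in either direction, and did not overlap between the muscles, as was so for 38.4%. Nothing is read from these counts, since the difference was known when the list was made. Of the fixed fibre-type genes, 8 of 8 slow-fibre genes were higher and 7 of 8 fast-fibre genes lower in soleus past this threshold. Of all 18726 genes, 3837 were higher and 3736 lower. Their part in the 10 genes' differences was not tested.

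**Figure D5:**
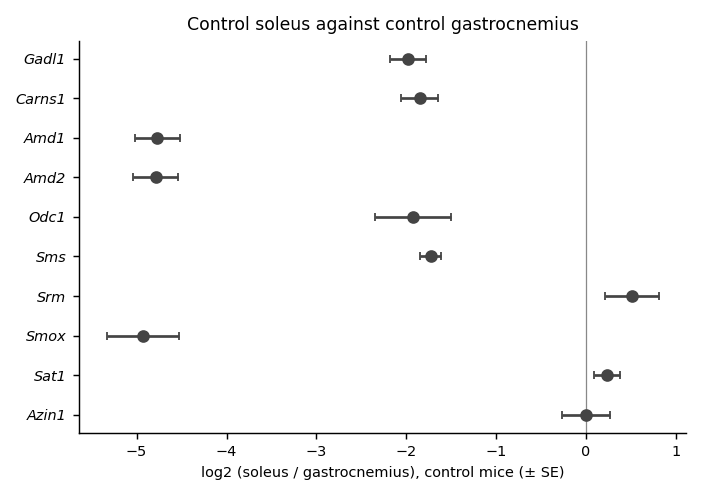
Fitted log2 ratio of control soleus to control gastrocnemius with standard errors for each gene. Smox, Amd1 and Amd2 lie between -4.93 and -4.77, Gadl1, Carns1, Odc1 and Sms between -1.98 and -1.73, and Srm, Sat1 and Azin1 near or above 0.

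Other genes of these pathways were taken from fixed lists, which were also made with earlier results known. Their differences are therefore given as descriptions without p-values. Of 21 genes that handle carnosine, beta-alanine, taurine or histidine, 14 were tested, and 3 rose and 0 fell between control and double KO gastrocnemius in edgeR's test, where 11.4% of all genes rose and 9.59% fell. Dpyd, which starts the breakdown of pyrimidines, rose by 1.01 ± 0.19 on the log2 scale. Slc36a1, a proton-coupled amino acid transporter, rose by 0.92 ± 0.15, and Slc6a6, the taurine and beta-alanine transporter, by 0.32 ± 0.08. Aldh6a1, a mitochondrial dehydrogenase of valine and beta-alanine breakdown, was at a mean of 144 CPM in control and 141 CPM in double KO gastrocnemius, and Carnmt1, which methylates carnosine to anserine, at 134 and 173 CPM. Neither of these passed. Slc15a2 did not pass either, at a mean of 4.54 CPM in control and 1.51 CPM in double KO gastrocnemius. The median log2 difference of the list was 0.13, against 0.00041 for all genes.

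Of 27 genes of polyamine supply, control, transport and use, 23 were tested, and 2 rose and 3 fell in double KO gastrocnemius, near the all-gene share of 20.9% in either direction. Past edgeR's threshold, Atp13a3, a polyamine transporter, rose by 0.50 ± 0.16 on the log2 scale and Mri1, of methionine salvage, by 0.43 ± 0.15. Mat2a, which makes S-adenosylmethionine, fell by 0.33 ± 0.11, from a mean of 276 to 217 CPM. Apip, of methionine salvage, fell by 0.34 ± 0.08 and Paox, a polyamine oxidase, by 0.40 ± 0.14. Eif5a, the translation factor that is modified with spermidine, was at 193 and 194 CPM, and Oat, ornithine aminotransferase, at 172 and 166 CPM, and neither passed. The list's median was 0.02. In soleus 0 genes of either list passed, where 0.722% of all genes did. Between control muscles, soleus was higher in 4 and lower in 2 genes of the carnosine list, and higher in 3 and lower in 7 of the polyamine list, both near the all-gene share of 40.4%. Mat2a was among the lower, at 101 CPM against 276 CPM.

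Markers of other cells and of fibre type also differed in double KO gastrocnemius. The counts below are of genes past edgeR's threshold, where 11.4% of all genes rose and 9.59% fell. Of 8 slow-fibre genes 7 fell, and their sum was 2123 to 2269 CPM against 4019 to 5322 CPM in controls. Of 8 fast-fibre genes 3 fell, with a sum of 118932 to 139217 CPM against 151744 to 187725 CPM. Macrophage markers rose in 4 of 8 genes, to a sum of 58.0 to 91.7 CPM from 45.2 to 53.8 CPM. Endothelial markers fell in 3 of 6 genes (177 to 195 CPM against 206 to 238 CPM), smooth muscle markers in 2 of 3 (56.0 to 71.1 against 71.3 to 105 CPM), adipocyte markers in 2 of 6 (63.8 to 105 against 88.95 to 135 CPM) and red blood cell markers in 3 of 3 (108 to 229 against 153 to 408 CPM). Fibroblast markers rose in 2 of 6, with sums of 588 to 687 against 555 to 621 CPM, and of 4 satellite cell markers 1 rose and 1 fell. Schwann cell (0 of 6) and neutrophil markers (0 of 2 tested) did not pass. No gene of these lists passed in double KO soleus, where 0.722% of all genes did. All defining macrophage and endothelial markers were above 0 in each group. The part of these shifts in the levels of the 10 genes was not tested.

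The genes whose log2 CPM followed each pattern most closely over the 32 libraries are given as a description. All points share the split between muscles, and genes were limited to a mean of at least 5 CPM. For Gadl1 they were Kif1c (Pearson r = 0.95), Pabpc4 (0.94), Slc30a2 (0.93), Cux1 (0.93) and Tnrc6a (0.93), and within the 16 soleus libraries these r were 0.77 to 0.86. For Carns1 they were Pld2 (0.97), Kctd15 (0.96), Gdap1, Stxbp4 and Klhl8 (each 0.95), with r of 0.40 to 0.71 within the 16 gastrocnemius libraries. Amd1 was followed by Amd2 (0.9998) and 4 Amd pseudogenes. Smox was followed by Amd1 (0.99) and Cib2 (0.99), with r of 0.74 and 0.67 within gastrocnemius and 0.86 and 0.91 within soleus. For Odc1 they were Carm1, Slc15a4, Serpinb6a, Psmd8 and Rnmt (0.95 to 0.96), with 0.19 to 0.79 within gastrocnemius and 0.90 to 0.95 within soleus.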

How the data were processed

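PolyA RNA of 32 whole muscles, from 16 mice with 2 muscles each, was sequenced. The deposited values are estimated counts per gene. Per the file headers, they were made with featureCounts 2.0.1 on the reverse strand with multi-mapping reads counted as fractions, and Ensembl release 102. The submitters' processing notes list cutadapt, HISAT2, DESeq2 and the build GRCm38.p6. A read that maps to several genes is thus divided among them, which links the counts of near-identical genes. Of 55487 genes, 55227 had a symbol.

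Counts were rounded and tested with edgeR 4.0.16 (filterByExpr, TMM scaling, robust quasi-likelihood) in R 4.3.3, within each muscle (12 residual degrees of freedom) and, for comparisons between muscles, over all 32 libraries (24). Adjusted p-values are Benjamini-Hochberg over all genes tested, with a threshold of 0.05. The fit was tested on simulated data. CPM use 1 TMM scaling over all libraries. The 10 genes are all named, as are list genes past the threshold, up to 3 list genes of highest mean CPM, and the 5 nearest patterns. Slc15a2 is named in addition, for its mean difference. The genes and lists were chosen with earlier results of these data known.

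Replicates are separate mice. Same-numbered libraries of different genotypes did not deviate together (median r 0.047 in gastrocnemius and 0.021 in soleus, 24 pairs each), so numbers do not pair them. The muscles of the same mouse did (median r 0.29, over 0.1 in 14 of 16 mice), which the labels' animal numbers give. With the animal as a block no call among the 10 genes changed between muscles. Alternatives were DESeq2 1.42.0, RLE scaling, other filters, fewer groups, blocks, Amd1 and Amd2 summed, and leaving out libraries. Dixon's ratio used a critical value of 0.829 for 4 libraries. Promoter and transcript sequences are from RefSeq (GRCm38.p6) and GENCODE M21. Protein sequences were not analysed here.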

Additional observations from a re-analysis of the deposited data

Results flagged for a closer look

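Of 80 groups of 4 libraries examined for these 10 genes, 9 held a library that stood apart by Dixon's ratio, and chance flags about 1 in 20. Of these, 4 were double KO mouse 1: Odc1 at 259 CPM in gastrocnemius and 317.5 CPM in soleus, and Srm at 5.84 CPM and 17.5 CPM. The others were Gadl1 in gastrocnemius Acvr1b KO 4, the highest of its group at 16.2 CPM, Srm in gastrocnemius Acvr1b KO 2, the lowest at 3.89 CPM, and Srm in soleus control 2, the lowest at 3.73 CPM. Smox in soleus Acvr1b KO 4 was the lowest at 20.3 CPM, and Azin1 in soleus control 3 the highest at 58.8 CPM.

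The double KO difference of Gadl1 was 1.61 higher on the log2 scale in soleus than in gastrocnemius, past the threshold of edgeR's test of the difference itself over all genes. Gadl1 was among the genes listed for its double KO gastrocnemius level, so the value is a description.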

How the results depend on the processing

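Over 14 comparisons, the number of the 10 genes past the threshold stayed within 1.5 times its value in 233 recomputations and moved in 14. For double KO against control gastrocnemius it went from 4 to 7 (3 higher, 4 lower) without the 5 libraries that stood apart, an alternative chosen after seeing the data. For double KO against control soleus it went from 0 to 2 with DESeq2 and to 1 without those libraries. For Acvr1b KO against control gastrocnemius it went from 0 to 1 with DESeq2. For the double KO difference between muscles it went from 1 to 3 with DESeq2, to 2 without double KO mouse 1 in both muscles (also chosen after seeing the data), and to 0 when only the groups compared were fitted. Calls over all genes moved too. For double KO against control gastrocnemius they went from 3673 to 4628 without the 5 libraries. For double KO against control soleus they went from 131 to 410 with DESeq2 and to 499 without the 5 libraries. For Acvr1b KO against control gastrocnemius they went from 5 to 25 with DESeq2. For the difference between muscles they went from 137 to 229 with DESeq2 and to 31 with only the groups compared. Leaving out 1 library at a time gave 0 to 1 of the 10 for double KO soleus, 1 to 3 for the difference between muscles and 1 to 3 for the departure from additivity in gastrocnemius. That departure was lost for both Amd1 and Amd2 without control 3, Acvr1b KO 1, Acvr1b KO 4 or Tgfbr1 KO 2 (Amd1 -0.64 to -0.67). For Amd2 alone it was also lost without control 4, Acvr1b KO 2, Tgfbr1 KO 1, Tgfbr1 KO 3 or double KO 4, and with the replicate block, so in 10 of 22 alternatives. The causes were not tested.

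Of 46 single-gene differences, 739 recomputations stayed on the same side of the threshold, 29 passed it anew and 15 lost it. In 1 the difference passed it with its direction turned: Odc1 in double KO gastrocnemius, at -0.35 without the libraries that stood apart. Short of the threshold, direction was not always kept. Srm ranged from -0.16 to 0.28 in double KO gastrocnemius and from -0.14 to 0.85 in double KO soleus. Smox and Azin1 also changed sign in double KO soleus. The fit with the replicate block brought Smox past the threshold in double KO gastrocnemius against control (-0.78) and against Tgfbr1 KO (-0.85) and lost Amd2 in the departure from additivity (-0.72). No other call changed with it.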
